A study of Mus musculus with 6 samples.

Results

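Genes for the synthesis and sulfation of glycosaminoglycans were followed in the mouse pre-osteoblast line MC3T3-E1 after knockdown of Hdac4, which encodes a class II histone deacetylase. The group was chosen by gene symbol, without use of the measured values, and holds 40 of the 53801 gene identifiers counted. Messenger RNA of 6 samples was sequenced, 3 from cells carrying a scrambled non-silencing hairpin (scramble) and 3 from cells carrying a short hairpin RNA against Hdac4 (Hdac4-shRNA). All 6 received a lentivirus that also encodes ZsGreen1 and puromycin resistance, and were selected with 5 µg/ml puromycin for 7 days, so no library came from uninfected cells. The Hdac4-shRNA group stands for 1 hairpin, which the study's text names as Hdac4-shRNA3. An effect of that hairpin on other transcripts, or any other difference between the infected cultures, cannot be told apart from the loss of Hdac4. The study's text calls the replicates biological, but neither it nor the labels say that the cells were infected separately. The p-values therefore measure the spread between these samples, which may be partly technical.

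Glycosaminoglycans are long, unbranched sugar chains of the pericellular and extracellular matrix. Hyaluronan is made at the plasma membrane without a protein core, whereas chondroitin, dermatan and heparan sulfate are built in the Golgi apparatus on the serines of core proteins through a shared linkage tetrasaccharide, and are then epimerised and sulfated. The sulfate pattern sets which growth factors the chains bind, and mutations of several of these enzymes cause skeletal dysplasias, among them those of EXT1 and EXT2 in multiple osteochondromas and of PAPSS2 and CHST3 in dysplasias of the spine and long bones.

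The libraries held between 29096544 and 31651826 counts on genes, and 19373 to 19797 genes had a count in the scramble libraries against 22148 to 22640 in the Hdac4-shRNA libraries. Hdac4 itself fell to 73.6% of its scramble level, from 40.3 ± 0.41 to 29.6 ± 0.98 CPM (counts per 1000000 of the normalized library size, mean ± SD, n = 3 in each group; log2 fold change -0.44 ± 0.06 SE, edgeR adjusted p = 8.98e-07). Below, ± after a CPM value or a share is the SD of 3 libraries and ± after a log2 fold change is its standard error. Markers of cell types moved with the groups. Their counts stand beside 38.0% of all genes tested called higher and 37.1% called lower, by the rule given below. Of 10 osteoblast markers 7 could be tested, of which 5 rose and 1 fell, and their summed level was 4782 to 4796 CPM in scramble and 21460 to 22295 CPM in Hdac4-shRNA, while Alpl, a defining early marker of the lineage, had at most 3 counts in every library, and Ibsp and Bglap at most 7 and 12. The rise of the sum was carried by the collagens Col1a1 (338 to 11015 CPM) and Col1a2 (1213 to 8572 CPM), whereas Spp1, the marker highest in scramble, fell from 3154 to 2046 CPM. All 6 myogenic markers fell, with sums of 832 to 873 CPM in scramble against 112 to 127 CPM in Hdac4-shRNA. Most of this sum was Des (737 to 102 CPM). All 6 neural markers fell as well, with sums of 1855 to 1960 CPM against 169 to 173 CPM. Nes (1269 to 80.4 CPM) was the largest part. Of 6 chondrocyte markers 2 of the 3 tested rose (125 to 128 against 169 to 186 CPM), with Acan, Matn1 and Col9a1 at 3 counts or fewer in every library. The rise of this sum was carried by Col2a1 (0.83 to 51.1 CPM), while Sox9 was not called (126 and 127 CPM). The other riser, Comp, could be tested only through its counts in Hdac4-shRNA (24, 20 and 17, against 1, 0 and 2 in scramble). The same holds for Sp7 and Pecam1 among the osteoblast and endothelial markers. Among the myogenic and neural markers, Pax7, Nefl and Nefm could be tested only through their counts in scramble. Their counts in Hdac4-shRNA were 0, 1 and 0 for Pax7, 2, 1 and 0 for Nefl, and 14, 3 and 16 for Nefm. Both tested adipocyte markers of 5 fell (105 to 116 against 23.9 to 29.1 CPM), with Adipoq and Plin1 at 3 counts or fewer. Among 4 endothelial and 5 haematopoietic markers, 1 of each rose, and their sums stayed at or below 3.16 and 5.43 CPM. These shifts accompany every change described below, and their part in those changes was not tested. In bulk RNA, fewer cells that express a gene and less of its RNA per cell cannot be told apart.

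The promoters of the 3 genes with the largest changes, Has1, Sulf2 and Papss2, are given as the 250 bases before RefSeq starts (GRCm38.p6), 5′ to 3′ on the gene's strand. Capitals mark matches, on either strand, to short motifs chosen after the expression results were known. These were the GC box bound by Sp1 and its relatives, GGGCGG, and the kind of E-box preferred by the myogenic factor MyoD, CAGCTG. The core site of the RUNX factors, of which Runx2 directs osteoblast formation, was searched as TGTGGT. The site of the AP-1 dimers of Fos and Jun proteins was searched as TGANTCA, and the TATA box of core promoters as TATAAA. The consensus of MEF2, a factor that HDAC4 is known to repress, was searched as well. The Has1 window lies at chr17:17855189-17855438 on the minus strand. The Sulf2 window lies at chr2:166155684-166155933 on the minus strand, and that of a further RefSeq start, which lies within the annotated gene and is not shown, held 21 CG dinucleotides and no match. Papss2 has 2 RefSeq starts on the plus strand, with windows at chr19:32595465-32595714 (start A) and chr19:32619755-32620004 (start B), and counts per gene do not say which start was used.
Has1: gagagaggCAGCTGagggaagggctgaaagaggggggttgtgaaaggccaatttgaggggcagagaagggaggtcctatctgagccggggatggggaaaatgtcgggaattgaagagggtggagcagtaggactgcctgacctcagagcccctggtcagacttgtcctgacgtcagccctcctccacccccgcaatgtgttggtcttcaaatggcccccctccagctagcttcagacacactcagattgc
Sulf2: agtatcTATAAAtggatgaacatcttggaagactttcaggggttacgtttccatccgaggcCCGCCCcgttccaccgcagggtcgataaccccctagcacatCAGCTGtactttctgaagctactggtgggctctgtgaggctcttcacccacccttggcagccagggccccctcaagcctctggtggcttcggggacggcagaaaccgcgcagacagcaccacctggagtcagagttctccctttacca
Papss2 start A: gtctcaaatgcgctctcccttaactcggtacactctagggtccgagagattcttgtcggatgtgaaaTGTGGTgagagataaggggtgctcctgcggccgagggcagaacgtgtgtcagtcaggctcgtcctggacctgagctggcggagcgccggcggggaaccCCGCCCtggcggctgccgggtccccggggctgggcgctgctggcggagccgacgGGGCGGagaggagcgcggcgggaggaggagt
Papss2 start B: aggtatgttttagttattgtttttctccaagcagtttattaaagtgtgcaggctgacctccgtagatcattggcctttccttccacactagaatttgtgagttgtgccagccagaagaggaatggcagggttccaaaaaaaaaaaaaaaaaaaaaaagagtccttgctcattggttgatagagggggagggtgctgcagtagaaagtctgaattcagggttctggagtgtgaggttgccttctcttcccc
The windows differed in base composition. The Has1 window held 4 CG dinucleotides and 1 match, a CAGCTG whose first base lies 242 bases before the start. The Sulf2 window held 10 CG dinucleotides with 1 match each to the GC box, CAGCTG and the TATA box, the last 244 bases before the start. Papss2 start A held 24 CG dinucleotides, 2 GC boxes and 1 TGTGGT, whereas start B held 1 CG dinucleotide and no match. RefSeq entries were found for 31 of the 40 genes, with 40 windows in all. A GC box was present in 55.0% of these 40 windows and in 32.7% of all 32851 windows of the same length, and the median number of CG dinucleotides was 17 against 6. CAGCTG occurred in 10.0% of the group's windows against 13% of all, TGTGGT in 5.0% against 14%, TATAAA in 5.0% against 12.4%, TGANTCA in 2.50% against 6.75%, and the MEF2 consensus in none of 40 against 2.92%. A match describes letters in a window and does not show that a factor binds there.

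Of the 40 genes, 35 had enough counts to be tested, and each of those had at least 10 counts in every library, so none entered the test through 1 group alone. A gene was called higher or lower at a Benjamini-Hochberg adjusted p below 0.05 over all 14531 genes tested together with a log2 fold change beyond 0.05, the thresholds the study states. By this rule 22 of the 35 rose and 11 fell. Among all genes tested, 38.0% were called higher and 37.1% lower, so a call alone sets a gene little apart. The same shares are the background for the counts by role below, each of which rests on few genes. The shares among the 35 genes were 62.9% higher and 31.4% lower. The groups did not overlap in 32 of the 35 genes (91.4%), against 76.8% of all genes tested. The 35 genes had a median log2 fold change of 0.20 beside 0.01 over all genes tested, a gap that was absent without the filter on low counts (0.26 beside 0.25), and their median size of change, whatever the direction, was 0.44 beside 0.46.

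**Figure D1:**
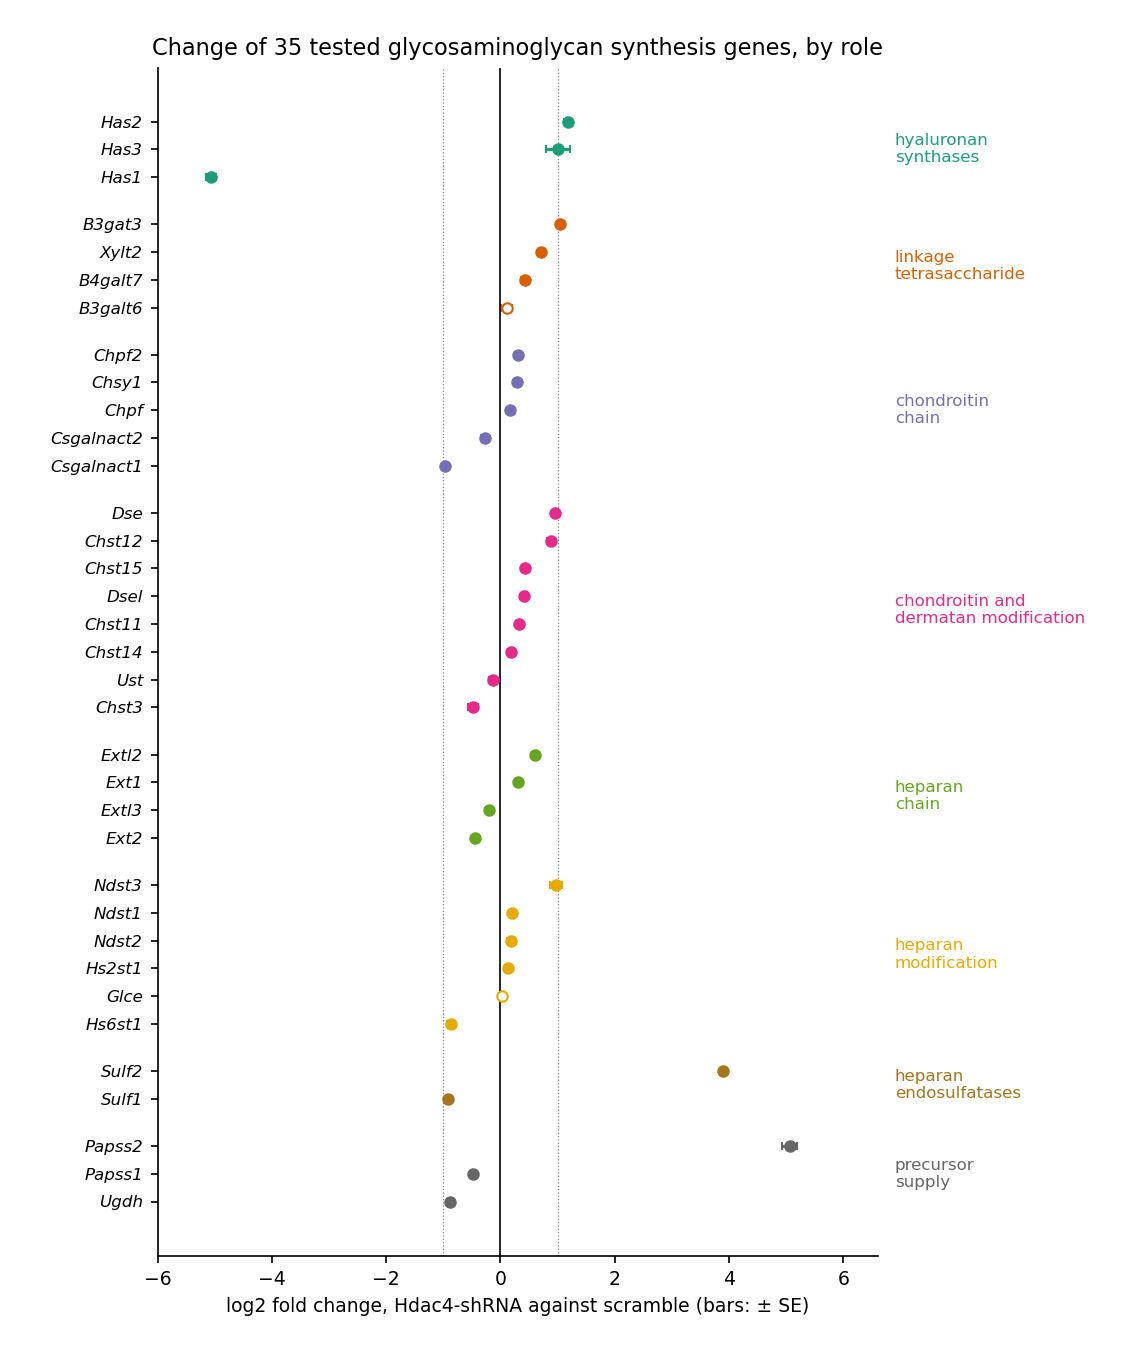
Log2 fold change (Hdac4-shRNA against scramble, horizontal axis) of the 35 tested genes, grouped and coloured by role, with bars of ± 1 standard error and open circles for genes not called. Has1 stands at -5.06, Sulf2 at 3.89 and Papss2 at 5.07, while the other 32 genes lie between -0.97 and 1.18.

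Changes of more than 1 log2 unit were found for 5 genes that rose (Papss2, Sulf2, Has2, B3gat3 and Has3) and for Has1, which fell. Among all genes tested, 16.5% were called higher and 10.6% lower by this margin, so 5 of 35 large increases are near the background. Of the 6 genes, 5 belong to families in which several enzymes share a step (the hyaluronan synthases, the endosulfatases and the PAPS synthases), and in each of these 3 families members moved in opposite directions.

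**Figure D2:**
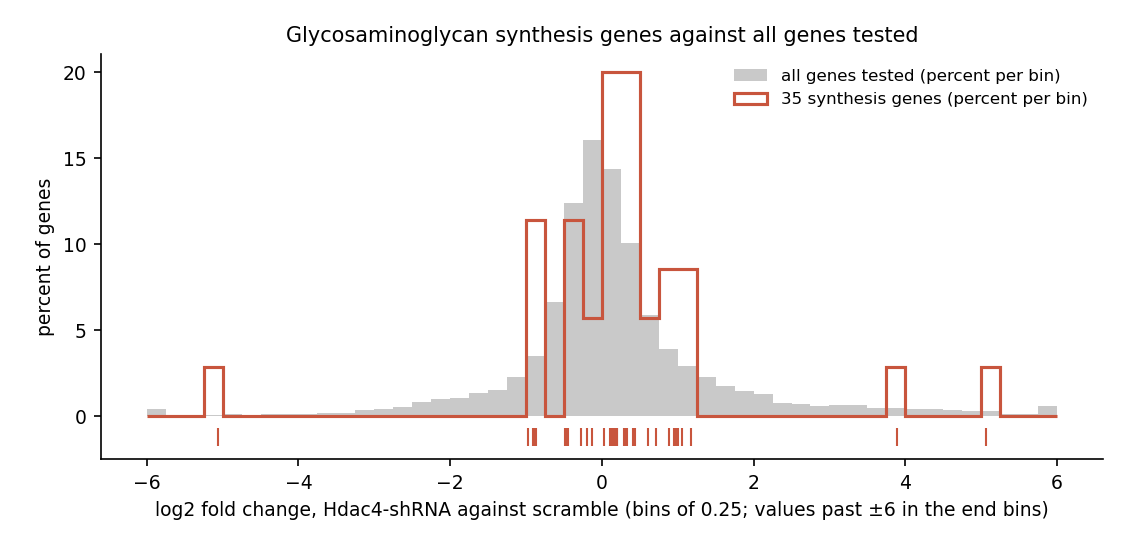
Distribution of log2 fold changes (bins of 0.25, vertical axis in percent of genes) for all 14531 genes tested (grey) and for the 35 synthesis genes (red outline, with 1 tick per gene below). Most synthesis genes lie within 1 log2 unit of 0, and 3 stand far outside.

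The hyaluronan synthases each polymerise hyaluronan from UDP-sugars and differ in expression and chain length. Has1 (ENSMUSG00000003665, chr17:17843323-17855205, minus strand) measured 56.3, 60.9 and 60.1 CPM in the scramble libraries and 1.58, 1.83 and 1.89 CPM in the Hdac4-shRNA libraries. The groups lay far apart, with the Hdac4-shRNA mean at 2.99% of the scramble mean (log2 fold change -5.06 ± 0.09 SE, edgeR adjusted p = 3.34e-20). Has2 (ENSMUSG00000022367, chr15:56665627-56694539, minus strand), the synthase required for heart and limb development, measured 36.9, 34.7 and 35.2 CPM in scramble and 86.7, 74.8 and 80.2 CPM in Hdac4-shRNA. All Hdac4-shRNA values were above all scramble values, a 2.26-fold higher mean (log2 fold change 1.18 ± 0.06 SE, edgeR adjusted p = 4.36e-13). Has3 (ENSMUSG00000031910, chr8:106870242-106884566, plus strand) was scarce, with 47, 38 and 32 counts in scramble and 80, 90 and 77 counts in Hdac4-shRNA. These correspond to 1.54, 1.27 and 1.12 CPM against 2.59, 2.79 and 2.56 CPM, without overlap (log2 fold change 1.01 ± 0.21 SE, edgeR adjusted p = 0.000268). Small parts of the exons of Has2 (182 of 4237 bases) and Has3 (352 of 6380 bases) overlap those of Has2os and Chtf8, and whether reads were counted by strand is not given in the sources used here.

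Compared per kilobase of exon, the dominant synthase changed. Has1 made up 60.3% ± 1.86 (SD, n = 3) of the summed CPM per kb of the family in scramble and 1.99% ± 0.29 in Hdac4-shRNA, whereas Has2 went from 38.8% ± 1.72 to 95.9% ± 0.50. Has3 remained the least, at 0.95% ± 0.16 and 2.10% ± 0.24. The sum itself differed little, at 21.7 ± 0.24 CPM per kb in scramble and 19.8 ± 1.37 in Hdac4-shRNA, a ratio of 0.914. Each of these comparisons gave p = 0.1 in a two-sided exact permutation test over libraries, the smallest value that 3 against 3 allows.

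**Figure D3:**
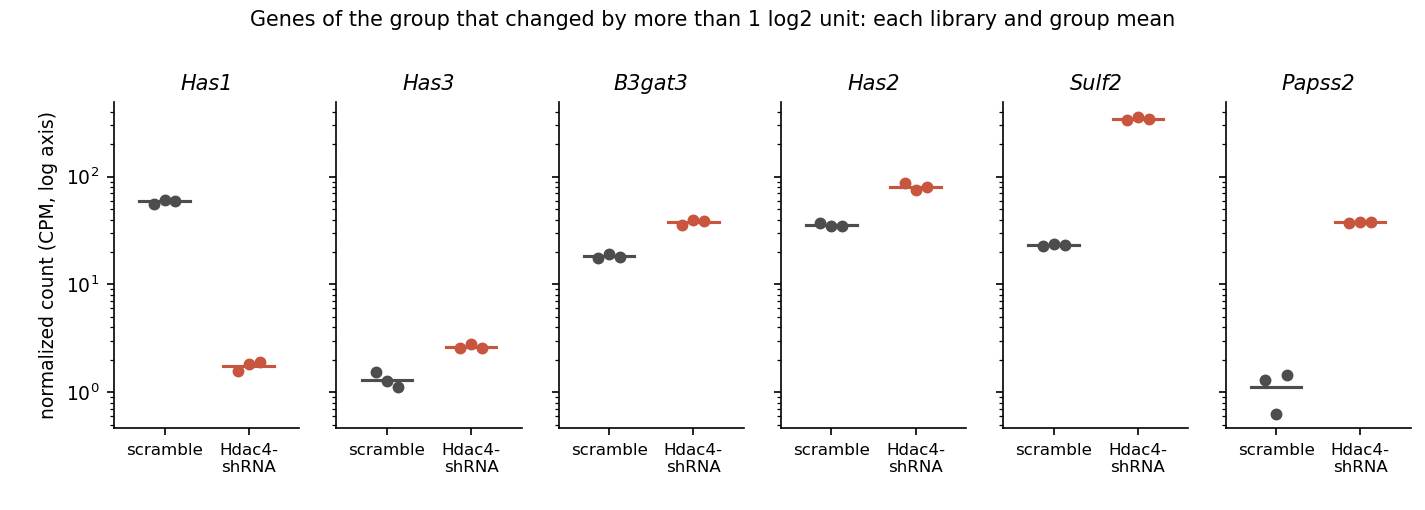
Normalized counts (CPM, log axis) of the 6 genes that changed by more than 1 log2 unit, with 1 point per library and a line at the mean of each group of 3. In all 6 panels the groups lie apart, and Has1 is the one gene whose Hdac4-shRNA libraries lie below scramble.

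The linkage tetrasaccharide, which anchors chondroitin, dermatan and heparan sulfate to core proteins, is built by a xylosyltransferase, a pair of galactosyltransferases and a glucuronosyltransferase. Of these 5 genes 4 were tested, and 3 rose and none fell, where 38.0% of all genes tested were called higher and 37.1% lower. B3gat3 (ENSMUSG00000071649, chr19:8920374-8927236, plus strand), which adds the glucuronic acid that completes the tetrasaccharide, measured 17.6, 19.3 and 18.1 CPM in scramble and 35.9, 39.6 and 38.7 CPM in Hdac4-shRNA. The groups did not overlap, and the mean was 2.07-fold higher (log2 fold change 1.05 ± 0.07 SE, edgeR adjusted p = 2.16e-11). It also had the highest level per kb of the role over all 6 libraries, at 10.9 CPM per kb. Xylt2, which attaches xylose to the core protein, rose from 30.6 ± 1.69 to 50.3 ± 1.73 CPM (log2 fold change 0.72). B4galt7, the galactosyltransferase that acts first, rose from 21.99 ± 1.09 to 29.7 ± 2.22 CPM (0.43 on the log2 scale). B3galt6, which adds the second galactose, was measured at 8.75 ± 0.35 and 9.45 ± 0.50 CPM and was not called (log2 fold change 0.11 ± 0.10 SE, edgeR adjusted p = 0.309). Xylt1, the other xylosyltransferase, had 1 count in all 6 libraries together and was not tested, so Xylt2 carried nearly all xylosyltransferase counts in both groups.

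Chondroitin chains are begun by Csgalnact1 and Csgalnact2 and extended by complexes of Chsy1, Chsy3, Chpf and Chpf2. The starting enzymes fell and the extending enzymes that were detected rose. Csgalnact1 fell from 107 ± 3.83 to 54.8 ± 3.47 CPM (log2 fold change -0.97 ± 0.05 SE, edgeR adjusted p = 1.73e-12), and Csgalnact2 fell from 48.9 ± 0.31 to 40.5 ± 4.79 CPM (-0.27 ± 0.07 SE, edgeR adjusted p = 0.00136). As Csgalnact1 fell further, Csgalnact2 took 40.8% ± 1.79 of their summed level per kb in Hdac4-shRNA against 29.9% ± 0.61 in scramble, and the sum dropped to a ratio of 0.606. Chpf, which had the highest level per kb of this role (23.7 CPM per kb over all libraries), measured 85.7, 89.5 and 84.1 CPM in scramble and 93.1, 101 and 96.2 CPM in Hdac4-shRNA. The groups did not overlap but were close, 1.12-fold apart (log2 fold change 0.16 ± 0.05 SE, edgeR adjusted p = 0.00426). Chsy1 rose from 62.3 ± 1.46 to 76.1 ± 1.53 CPM (log2 fold change 0.29), and Chpf2 from 70.3 ± 2.81 to 87.5 ± 0.59 CPM (0.32). Of the 5588 exon bases of Chpf2, 2466 are shared with Smarcd3 and Mir671, which leaves its value uncertain. Smaller overlaps with neighbouring annotations concern 110 exon bases of B4galt7, 148 of Chsy1, 447 of Hs6st1, 77 of Glce, 154 of Sulf2 and 158 of Ugdh. Chsy3 was at 0 in all 6 libraries.

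The enzymes that shape chondroitin and dermatan sulfate were all tested, and 6 of 8 rose while 2 fell. Among all genes tested, 38.0% were called higher and 37.1% lower. Among the chondroitin 4-O-sulfotransferases, Chst11, the most abundant of the role per kb (28.4 CPM per kb), measured 141, 137 and 140 CPM in scramble and 181, 170 and 175 CPM in Hdac4-shRNA. Every Hdac4-shRNA library lay above every scramble library, 1.26-fold on average (log2 fold change 0.33 ± 0.04 SE, edgeR adjusted p = 6.93e-07). Chst12, its relative, rose more, from 19.1 ± 2.00 to 35.2 ± 1.12 CPM (log2 fold change 0.89), and its share of the pair went from 24.2% ± 2.09 to 32.04% ± 1.33. Dse, an epimerase that turns chondroitin into dermatan by converting glucuronic to iduronic acid, rose from 65.7 ± 2.25 to 128 ± 3.09 CPM (log2 fold change 0.96 ± 0.05 SE, edgeR adjusted p = 2.38e-13). Its relative Dsel rose from 37.8 ± 0.38 to 50.4 ± 2.51 CPM (0.41), and Dse made up 66.8% ± 0.67 of the pair in scramble and 74.6% ± 0.77 in Hdac4-shRNA. Their summed level was 1.74-fold higher in Hdac4-shRNA. Chst14, the dermatan 4-O-sulfotransferase, rose from 31.3 ± 0.87 to 35.8 ± 0.63 CPM (0.19), and Chst15, which adds a further sulfate to 4-sulfated units, rose from 38.6 ± 1.07 to 51.8 ± 0.72 CPM (0.43), with 1206 of its 6754 exon bases shared with Gm10584. Chst3, a chondroitin 6-O-sulfotransferase, moved the other way and fell from 17.6 ± 1.31 to 12.6 ± 0.48 CPM (log2 fold change -0.48 ± 0.08 SE, edgeR adjusted p = 3.4e-05). Chst7, a further chondroitin 6-O-sulfotransferase outside the group, was named after its values were seen. It rose from 0.203 to 2.65 CPM per kb, while Chst3 went from 2.71 to 1.94. Transcripts of 6-O-sulfotransferases therefore did not all fall. Ust, the uronyl 2-O-sulfotransferase, stood at 42.9 ± 2.92 and 39.1 ± 0.21 CPM and was called lower by a narrow margin (log2 fold change -0.13 ± 0.06 SE, edgeR adjusted p = 0.046). That call was lost when scramble replicate 1 or 2 or any of the Hdac4-shRNA replicates was left out, with edgeR adjusted p between 0.0537 and 0.18.

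**Figure D4:**
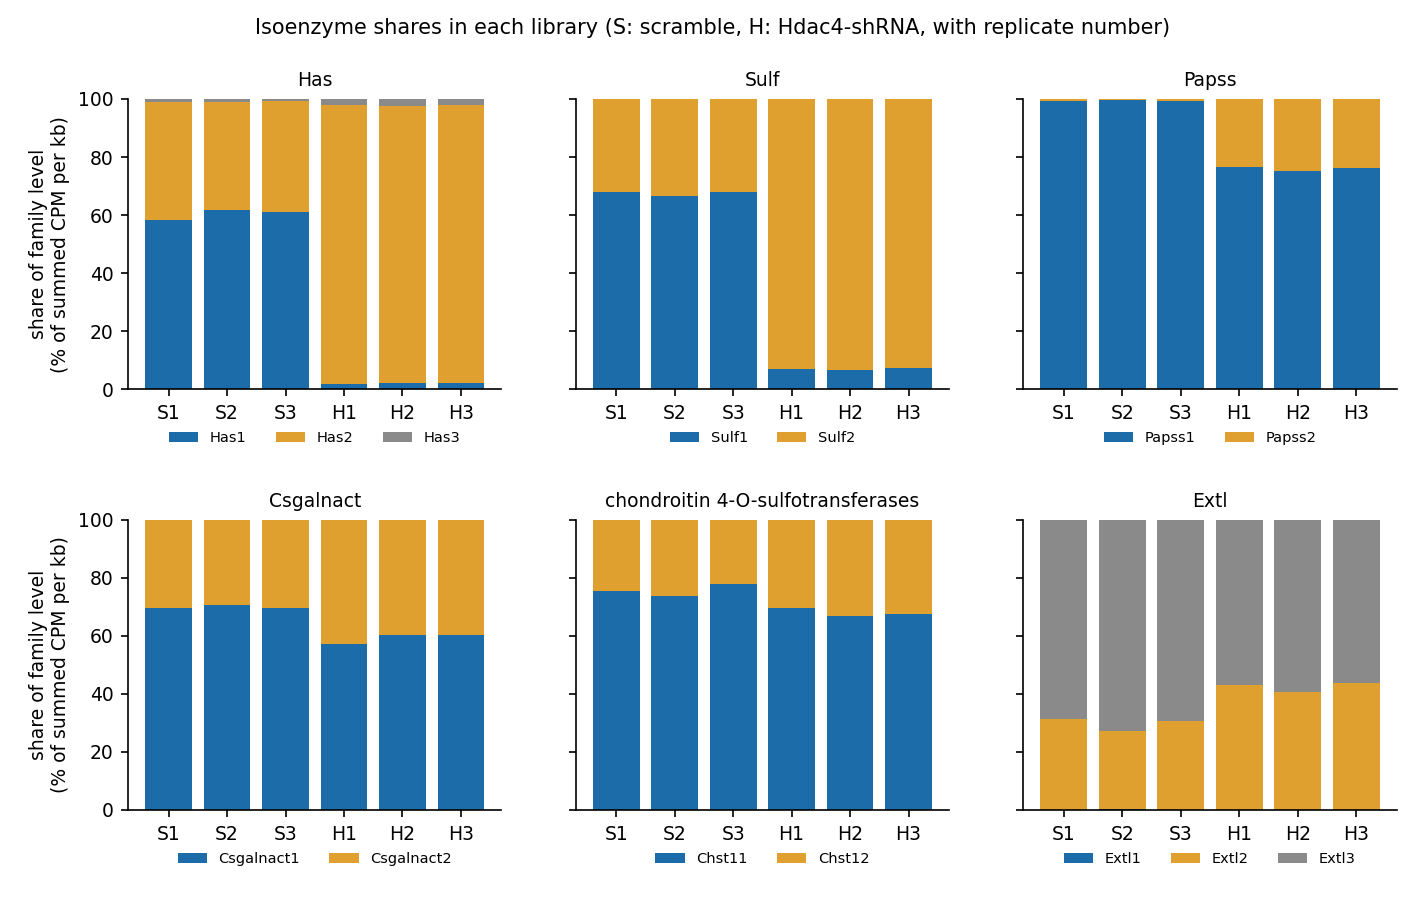
Share of each isoenzyme in the summed level per kb of its family (vertical axis, percent of CPM per kb of exon) in every library, S for scramble and H for Hdac4-shRNA with the replicate number. Has2 and Sulf2 take the place of Has1 and Sulf1 as the larger share in all 3 Hdac4-shRNA libraries, and Papss2 becomes visible beside Papss1.

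Heparan sulfate chains are begun by Extl3, polymerised by the complex of Ext1 and Ext2, and can be ended early by Extl2. Here 2 genes rose and 2 fell. Ext1, with the highest level per kb of the role (30.02 CPM per kb), measured 213, 224 and 212 CPM in scramble and 273, 265 and 268 CPM in Hdac4-shRNA. The groups did not overlap, with a mean 1.24-fold higher (log2 fold change 0.31 ± 0.04 SE, edgeR adjusted p = 8.12e-07). Its partner Ext2 fell from 157 ± 4.85 to 115 ± 6.95 CPM (log2 fold change -0.44 ± 0.05 SE, edgeR adjusted p = 7.68e-08), so the members of the polymerase complex moved in opposite directions. Extl2 rose from 30.4 ± 2.06 to 46.5 ± 2.87 CPM (0.61 on the log2 scale) and Extl3 fell from 127 ± 4.60 to 111 ± 0.74 CPM (-0.20). Extl2 therefore took 42.5% ± 1.66 of the family's level per kb in Hdac4-shRNA against 29.6% ± 2.14 in scramble. Extl1, another transferase of this family, had 4, 9 and 2 counts in scramble and 1, 4 and 2 counts in Hdac4-shRNA and was not tested.

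Heparan sulfate is modified by N-deacetylase/N-sulfotransferases, a glucuronyl epimerase and O-sulfotransferases. Of 8 genes, 4 rose, 1 fell, 1 was not called and 2 were not tested. Ndst1, the main N-sulfotransferase by level (20.2 CPM per kb), measured 153, 163 and 150 CPM in scramble and 180, 184 and 173 CPM in Hdac4-shRNA. All Hdac4-shRNA values were above scramble, by 1.15-fold on average (log2 fold change 0.20 ± 0.04 SE, edgeR adjusted p = 0.000323). Ndst2 rose from 28.3 ± 1.91 to 32.2 ± 1.89 CPM with overlapping groups (log2 fold change 0.19, edgeR adjusted p = 0.0181), a call that was lost without scramble replicate 1 (adjusted p = 0.0609), scramble replicate 2 (0.124) or Hdac4-shRNA replicate 1 (0.0576). Ndst3 was the least abundant and rose most, from 4.69 ± 0.18 to 9.23 ± 0.22 CPM (log2 fold change 0.97 ± 0.11 SE, edgeR adjusted p = 1.59e-07). The shares of Ndst1 (73.7% ± 1.95 and 73.0% ± 0.62) and Ndst2 (24.4% ± 1.97 and 23.9% ± 0.71) overlapped between the groups (p = 0.7 each, two-sided exact permutation test). The share of Ndst3 went from 1.87% ± 0.075 to 3.15% ± 0.18 without overlap (p = 0.1, the smallest value that this exact permutation test allows). Hs2st1, the heparan 2-O-sulfotransferase, rose from 123 ± 3.10 to 135 ± 5.57 CPM (log2 fold change 0.13, edgeR adjusted p = 0.0109), which without scramble replicate 2 became 0.10 with an adjusted p of 0.081. Hs6st1, the heparan 6-O-sulfotransferase, fell from 63.2 ± 5.38 to 34.6 ± 0.62 CPM (log2 fold change -0.87 ± 0.06 SE, edgeR adjusted p = 1.09e-10). Glce, the glucuronyl epimerase, stood at 76.8 ± 2.18 and 78.1 ± 4.11 CPM and was not called (log2 fold change 0.02 ± 0.05 SE, edgeR adjusted p = 0.675).

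A pair of low-count heparan sulfotransferases was seen almost only in Hdac4-shRNA. Hs3st1, a 3-O-sulfotransferase that makes the antithrombin binding site, had 1, 0 and 0 counts in scramble and 7, 6 and 7 counts in Hdac4-shRNA. Hs6st2, a relative of Hs6st1, had 0, 1 and 0 counts in scramble and 12, 12 and 4 counts in Hdac4-shRNA. Neither passed the filter on low counts. Without the filter both were called higher (edgeR adjusted p = 0.00711 and 0.00047). These calls rest almost only on the Hdac4-shRNA libraries and add little to the counts themselves. Hs6st2 still made up 0.60% ± 0.28 of the Hs6st level per kb in Hdac4-shRNA. Across the series, 22148 to 22640 genes had a count in the Hdac4-shRNA libraries against 19373 to 19797 in scramble. The median log2 fold change of all genes was 0.25 without the filter and 0.01 with it.

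The endosulfatases Sulf1 and Sulf2 act outside the cell, where they remove 6-O-sulfates from heparan sulfate. Sulf2 (ENSMUSG00000006800, chr2:166073089-166155663, minus strand) measured 22.5, 24.0 and 23.4 CPM in scramble and 334, 359 and 343 CPM in Hdac4-shRNA. The groups were 14.8-fold apart, with no overlap (log2 fold change 3.89 ± 0.05 SE, edgeR adjusted p = 3.11e-22). Sulf1 fell from 92.8 ± 1.90 to 49.4 ± 1.78 CPM (log2 fold change -0.91 ± 0.05 SE, edgeR adjusted p = 1.24e-12). Sulf1 thus held 67.4% ± 0.78 of the pair's level per kb in scramble and 6.93% ± 0.34 in Hdac4-shRNA. Because Sulf2 gained more than Sulf1 lost, their sum went from 12.2 ± 0.22 to 63.2 ± 2.18 CPM per kb, a ratio of 5.19 (p = 0.1, two-sided exact permutation test, the smallest value possible). Hs6st1, which adds the sulfates that these enzymes remove, fell in the same comparison.

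The precursors come from Ugdh, which makes UDP-glucuronic acid, and from Papss1 and Papss2, which make the sulfate donor PAPS. Ugdh fell from 294 ± 11.2 to 159 ± 4.94 CPM (log2 fold change -0.88 ± 0.04 SE, edgeR adjusted p = 2.86e-13). Papss1, with the highest level per kb of the role (38.3 CPM per kb), measured 136, 134 and 137 CPM in scramble and 99.4, 95.5 and 98.8 CPM in Hdac4-shRNA. All Hdac4-shRNA values were below scramble, at 72.1% on average (log2 fold change -0.47 ± 0.04 SE, edgeR adjusted p = 4.44e-09). Papss2 (ENSMUSG00000024899, chr19:32595790-32667187, plus strand), the synthase prominent in cartilage, had 40, 19 and 41 counts in scramble and 1154, 1234 and 1136 counts in Hdac4-shRNA, which are 1.31, 0.635 and 1.44 CPM against 37.3, 38.3 and 37.7 CPM. It rose 33.5-fold, the largest increase of the group (log2 fold change 5.07 ± 0.13 SE, edgeR adjusted p = 1.57e-17). Its share of the pair per kb went from 0.67% ± 0.25 to 24.1% ± 0.63, so Papss1 stayed the larger source of Papss transcripts in every library. The sum of the pair was 44.8 ± 0.51 CPM per kb in scramble and 42.2 ± 0.56 in Hdac4-shRNA, a ratio of 0.943.

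**Figure D5:**
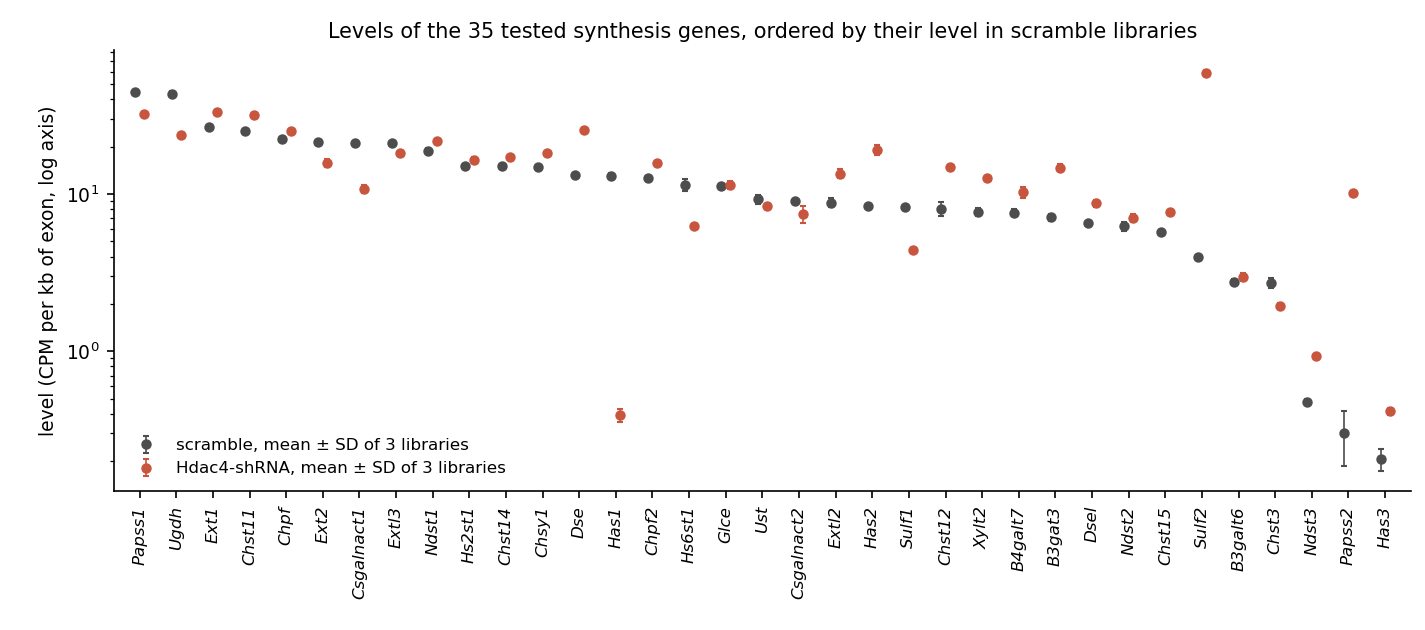
Level per kb of exon (CPM per kb, log axis) of the 35 tested genes, ordered by their scramble level, as mean ± SD of 3 libraries per group. Papss1 and Ugdh were highest in scramble at 44.5 and 43.5 CPM per kb, and Sulf2 was highest in Hdac4-shRNA at 58.8 CPM per kb.

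The order of the genes by level changed accordingly. In scramble the highest levels per kb were those of Papss1 (44.5 ± 0.40) and Ugdh (43.5 ± 1.66), which differed by less than the spread of Ugdh, followed by Ext1 (26.8 ± 0.85). In Hdac4-shRNA Sulf2 came first (58.8 ± 2.19 CPM per kb), followed by Ext1 (33.2 ± 0.47), Papss1 (32.1 ± 0.68) and Chst11 (31.7 ± 0.98). Papss1 and Chst11 differed by less than their spread. Has1 fell from near the middle of the order (13.1 ± 0.55) to the lowest of the 35 (0.392 ± 0.036), below Has3 (0.415 ± 0.020) by less than the spread of Has1.

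The other genes of the pathway were taken from lists drawn up by function, with earlier results of these data known. There were 34 further synthesis genes, among them other sulfotransferases, keratan sulfate enzymes and suppliers of sugar nucleotides and sulfate. Of these 24 were tested, and 12 rose (50%) and 7 fell (29.2%), beside 38.0% and 37.1% of all genes tested. Their median log2 fold change was 0.19 beside 0.01 over all genes tested. Some of the called genes, among them Gfpt2 and Hs3st5, passed the filter on low counts through 1 group alone. Chst1, a keratan sulfate sulfotransferase, fell from 78.4 ± 3.84 to 14.8 ± 0.78 CPM (log2 fold change -2.41). Impad1, the Golgi phosphatase that clears the by-product of sulfation, rose from 156 ± 4.50 to 236 ± 32.4 CPM (0.60), and Gfpt1, the entry enzyme of hexosamine synthesis, rose from 80.2 ± 3.90 to 115 ± 8.13 CPM (0.52).

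Of 20 genes for the breakdown of glycosaminoglycans 18 were tested, and 12 rose and 3 fell around a median of 0.51 on the log2 scale, beside 38.0% higher, 37.1% lower and a median of 0.01 over all genes tested, the background for the lists that follow too. The lysosomal exoenzymes, 13 of the 18 tested, accounted for 10 of the 12 increases. Cemip, which binds and depolymerises hyaluronan at the cell surface, rose from 4.74 ± 0.087 to 35.2 ± 1.46 CPM (log2 fold change 2.89). Sgsh, the lysosomal heparan N-sulfatase, rose from 13.7 ± 0.57 to 42.0 ± 0.66 CPM (1.62), although 955 of its exon bases are shared with Card14, and Idua, the lysosomal iduronidase, rose from 5.45 ± 0.49 to 12.1 ± 1.16 CPM (1.15), with 265 exon bases shared with Slc26a1 and Dgkq.

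Of 25 core protein genes 17 were tested, and 11 rose and 4 fell around a median of 0.41. Cd44, which can carry chondroitin sulfate, is 1 of the 4 and is counted again among the hyaluronan receptors. Among the 11, Cspg5 had 1, 9 and 3 counts in scramble and 14 in every Hdac4-shRNA library. It passed the filter on low counts through Hdac4-shRNA alone. Bgn, a small proteoglycan of bone matrix that carries chondroitin or dermatan sulfate, rose from 59.5 ± 2.54 to 1659 ± 45.1 CPM (log2 fold change 4.80). Dcn, its relative, rose from 11.8 ± 0.79 to 105 ± 5.66 CPM (3.16), and Gpc4, a membrane-anchored heparan sulfate proteoglycan, rose from 0.90 ± 0.23 to 22.6 ± 1.76 CPM (4.65). Acan, the large cartilage proteoglycan, was at 0 in every library. Of 14 genes for hyaluronan receptors and binding proteins 7 were tested, and 4 rose and 3 fell around a median of 1.22. Hmmr, a hyaluronan-binding protein of the mitotic spindle, fell from 118 ± 3.06 to 31.5 ± 2.36 CPM (-1.91). Cd44, the main hyaluronan receptor, fell from 806 ± 15.8 to 572 ± 43.5 CPM (-0.49), and Hapln4, a link protein, rose from 2.58 ± 0.11 to 6.03 ± 0.68 CPM (1.22). Of this list, Stab1, Stab2 and Tnfaip6 had fewer than 10 counts in at least 1 scramble library, and Itih2 in at least 1 Hdac4-shRNA library. These genes passed the filter on low counts through the group in which they were higher. The median of the hyaluronan binding list and the number called higher therefore depend on that filter.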

How the data were processed

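Poly(A) RNA libraries of 3 scramble and 3 Hdac4-shRNA samples of MC3T3-E1 cells were analysed. The authors deposited raw counts per gene. The submitters' processing notes name FastQC, STAR 2.7.3a, HTSeq 0.12.4 and the mm10 genome. Symbols, positions and exon lengths came from GENCODE M21 (GRCm38), which matched 53706 of 53801 identifiers. Groups followed the sample titles.

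Counts were fitted with edgeR 4.0.16 (TMM normalization, filterByExpr, quasi-likelihood F test, group as the one factor) over 14531 genes, in R 4.3.3, with Benjamini-Hochberg adjustment. The common coefficient of variation was 4.79%. CPM used TMM library sizes, and levels of different genes were compared per kb of exon. The scripts were tested on simulated data. Alternatives used DESeq2 1.42.0 and limma 3.58.1.

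All 40 genes are named, and every library is given for those called beyond 1 log2 unit and for the highest gene per kb of each role. From each other list, up to 3 genes are named, chosen by the size of their change among the called genes that averaged 100 counts or more. The genes, lists and motifs were chosen with earlier results of these data known.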

Additional observations from a re-analysis of the deposited data

How the results depend on the processing

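Of the 35 tested genes, 31 kept their direction and their side of the threshold in all 14 alternatives. Ust lost its call in 9 of them, Ndst2 in 4 and Hs2st1 in 2. Glce changed sign, to -0.0049 on the log2 scale without the filter on low counts and to between -0.0099 and 0.062 when 1 library was left out, and it was called higher with upper quartile normalization (0.11, edgeR adjusted p = 0.0475). The alternatives tested 35 to 39 of the 40 genes, and the numbers called ranged from 21 to 23 higher and 10 to 11 lower. Without the filter on low counts the 22 called higher included Hs3st1 and Hs6st2, whose counts lay almost only in Hdac4-shRNA, but neither Ndst2 nor Hs2st1. The medians of the group and of all genes were then 0.26 and 0.25. The median log2 fold change of the group became 0.26 with library size alone and 0.29 with upper quartile normalization, while upper quartile normalization moved the median of all genes from 0.01 to 0.10. With upper quartile normalization 1 degradation gene was called lower in place of 3. The hyaluronan binding genes called higher numbered 7 without the filter on low counts and 1 when at least 10 counts were asked of every library, in place of 4, since the filter sets which of these scarce genes are tested. Replicate numbers did not pair the libraries: same-numbered samples deviated with correlations of -0.0111, 0.027 and 0.0166. A replicate block left 22 genes higher and 11 lower. Depth limits Xylt1, Chsy3, Extl1, Hs3st1 and Hs6st2, and without the filter Xylt1 and Extl1 were not called (edgeR adjusted p = 0.494 and 0.363). With 3 libraries a group, an exact permutation test cannot go below p = 0.1.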

Other observations

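The genes below lay outside the naming rule and were chosen after their values were seen. Chst7, a chondroitin 6-O-sulfotransferase and relative of Chst3, had 18, 10 and 12 counts in scramble and 159, 202 and 184 counts in Hdac4-shRNA (log2 fold change 3.69 ± 0.22 SE, edgeR adjusted p = 1.07e-11). It therefore rose in the comparison in which Chst3 fell. Hs3st5, a heparan 3-O-sulfotransferase, had 49, 61 and 65 counts in scramble and 7, 5 and 2 counts in Hdac4-shRNA (log2 fold change -3.68 ± 0.38 SE, edgeR adjusted p = 4.75e-08). It passed the filter on low counts through the scramble libraries alone. Hs3st3a1 and Ndst4, the other tested heparan sulfotransferases outside the group, also fell (log2 fold changes -1.24 and -1.08), with 1295 exon bases of Hs3st3a1 shared with F930015N05Rik. Hpse, the heparanase that cleaves heparan sulfate chains, fell from 4.89 ± 0.56 to 1.23 ± 0.17 CPM (log2 fold change -1.98 ± 0.19 SE, edgeR adjusted p = 9.57e-09). Gfpt2, an isoenzyme of Gfpt1, had 1, 0 and 0 counts in scramble and 15, 30 and 23 counts in Hdac4-shRNA. It was called higher (edgeR adjusted p = 2.05e-06), but it passed the filter on low counts through the Hdac4-shRNA libraries alone. The call therefore adds little to the counts themselves. Its fold change depends on the prior count and is not given. Among the chondroitin and dermatan sulfate core proteins, Cspg4, a membrane proteoglycan of pericytes and progenitors, rose from 51.6 ± 2.01 to 443 ± 18.3 CPM (log2 fold change 3.10), whereas Col18a1, a basement membrane collagen that carries heparan sulfate, fell from 334 ± 13.4 to 60.9 ± 2.78 CPM (log2 fold change -2.45).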
